A study of Homo sapiens with 4 samples.

Results

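The TGF-beta and bone morphogenetic protein (BMP) receptors of HEK293 cells were examined as a family of 10 genes, chosen by name and found through the RefSeq accession that each array probe carries. All 10 were measured, among 17217 genes with a name on the array. They comprise the type I receptor genes TGFBR1, BMPR1A, BMPR1B, ACVR1 and ACVR1B, and the type II receptor genes TGFBR2, BMPR2, ACVR2A, ACVR2B and AMHR2. Ligands of this superfamily bring type I and type II receptors together on the cell surface. Both are serine/threonine kinases. The type II receptor phosphorylates the type I receptor, which then phosphorylates SMAD proteins that carry the signal to the nucleus. TGF-beta and activin signals run mainly through SMAD2 and SMAD3, and BMP signals mainly through SMAD1, SMAD5 and SMAD9. In the developing kidney BMP signalling takes part in the outgrowth of the ureteric bud and the survival of nephron progenitors.

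HEK293 is a line of human embryonic kidney origin that adenovirus DNA transformed, and it is a common host for cloned receptors. The data were 4 single-colour NimbleGen arrays of 1 group of untreated cells grown with serum, penicillin and streptomycin, each array hybridised with RNA from a separate plate. There was no second condition, so the question put to each receptor was whether its message lay above a detection threshold. This threshold, the baseline, was set on each array from seminal protein genes, which the study held unlikely to be transcribed in these cells. It was their mean, which the study took as zero expression, plus 2 SD. For replicates 1 to 4 it came to 9.47, 9.94, 10.69 and 10.32 log2 units. The distance of a gene is its log2 level on an array minus the baseline of that array. All genes on replicate 1 therefore start from the lowest baseline, and 69.7% of all named genes had their largest distance there. Each probe has its own affinity, so distances of different genes do not rank their transcripts. In RNA from a whole plate, fewer cells with a transcript and less of it per cell cannot be told apart.

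The cell type was checked on marker lists. All 10 reference genes lay above the baseline on all 4 arrays. Of 12 kidney markers 11 lay below it on all 4, and WT1, a gene of the kidney progenitors, had a mean distance of 0.81. Of 9 matched neuronal markers 5 had a mean above it. Of 10 blood and endothelial markers 0 had a mean above it, with the log2 of their summed linear level at 10.17 to 10.88 over the arrays. Of 8 fibroblast markers COL1A1 alone did, with the same sum at 10.85 to 12.10. Their part in the values of the receptors was not tested.

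Of the 10 receptors, 8 lay above the baseline by their mean distance, as did 52.7% of all named genes. The number above it on all 4 arrays was 7, against a background of 45%. A one-sided limma test of the distance against 0, adjusted over all named genes, called 5 of the 10, against 45.9% of all named genes. Those 5 were BMPR1A and ACVR1 among the type I genes, and TGFBR2, BMPR2 and ACVR2B among the type II genes. The limma fit gave all genes the same standard error of 0.351, so in effect it called a mean distance of 0.70 or more. The receptors with a mean below the baseline were TGFBR1 and AMHR2. The number above the baseline depended on where it was drawn. It was 9 with 1 SD (all named genes 64.3%) and 4 with 3 SD (all named genes 39.1%). It was 9 also without SPATA5 and SPATA13 (all named genes 74%), the control genes with the highest levels. Olfactory receptor genes as controls (all named genes 71.4%) and the median plus 2 scaled MAD of the controls (all named genes 67.7%) also gave 9. Without the brightest probe of each target it was 6 (all named genes 50.7%). The limma test moved with the baseline too. It called 2 receptors with 3 SD (all named genes 28.6%) and 7 with 1 baseline for all arrays (all named genes 47.4%). It called 9 with 1 SD (all named genes 58.9%), without SPATA5 and SPATA13 (68.6%), with olfactory receptor controls (66.3%) and with the median and MAD (62.3%). The median of the 10 mean distances was 0.91 log2 units, and that of all named genes was 0.26.

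**Figure D1:**
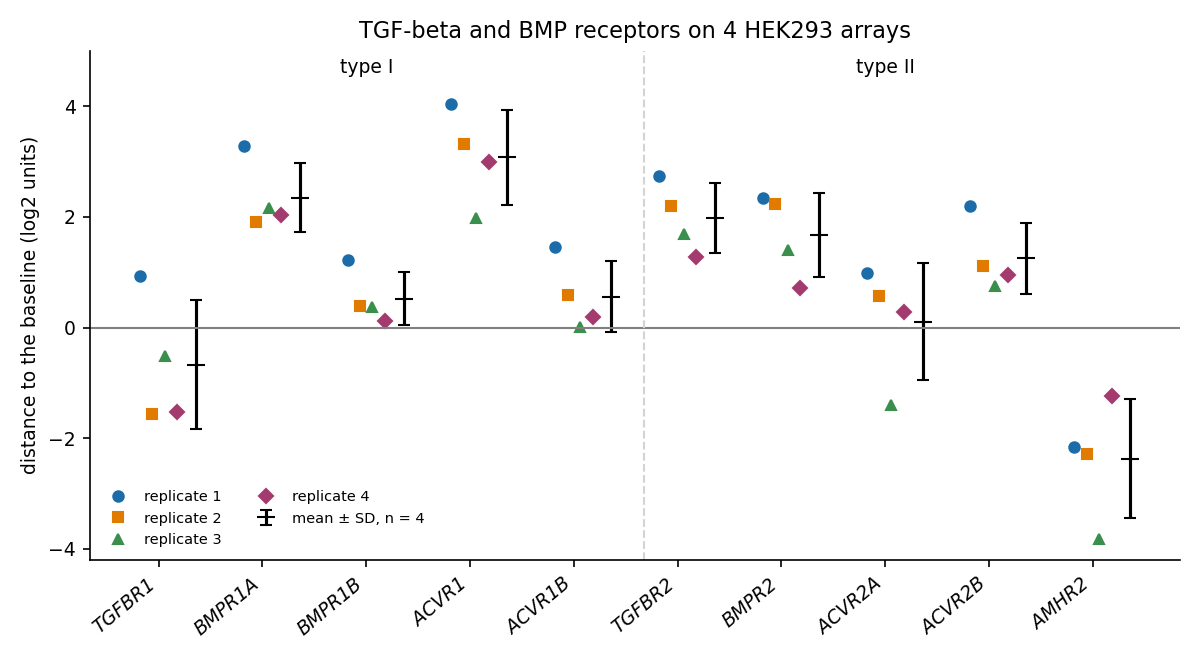
Distance to the baseline in log2 units (vertical axis) of the 5 type I and 5 type II receptor genes on each of 4 HEK293 arrays. Points are single arrays, and the bar is the mean ± SD (n = 4). ACVR1 lies between 1.97 and 4.04 and AMHR2 between -3.83 and -1.23, while TGFBR1 and ACVR2A have arrays on both sides of the baseline at 0.

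ACVR1, also known as ALK2, is a type I receptor for BMPs that can also bind activin, and BMPR1A, or ALK3, is a widely expressed type I receptor for BMP2 and BMP4. The distances of ACVR1 on replicates 1 to 4 were 4.04, 3.31, 1.97 and 2.98. Its mean of 3.08 ± 0.86 log2 units (SD, n = 4, limma adjusted p = 6.3e-18) was larger than the spread between arrays. Its size depended on the probes. Probe 1704 of ACVR1 read 13.82 to 14.76 log2 units over the arrays and probe 2034 read 11.83 to 12.21. Probe 2712 read 8.21 on replicate 3, below the baseline, and 10.34 to 11.48 on the other arrays. ACVR1 stood at 2.05 with the median of the probes and at 1.98 without the brightest probe of each target. BMPR1A stood at 3.28, 1.91, 2.16 and 2.04 on replicates 1 to 4, a mean of 2.35 ± 0.63 (SD, n = 4, limma adjusted p = 4.8e-11). Both genes lay above the baseline on every array and under every alternative setting run. The value of BMPR1A on replicate 2 held a single discordant spot. Its probe 2781, named by the number in the probe's name, read 6.58 log2 units there and 12.99 to 13.37 on the other arrays, and its other probes read 13.15 and 10.85 on replicate 2. A gap that large below the other arrays was found in 0.068% of the 57375 named probes. With the median of the probes BMPR1A stood at 2.39 ± 0.88 (SD, n = 4). This summary does not remove the effect of the spot, because the low reading left 10.85 as the median for replicate 2.

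BMPR1B, or ALK6, is the close relative of BMPR1A and is known mainly from cartilage and ovary. Its distances were 1.21, 0.40, 0.37 and 0.11 on replicates 1 to 4, all above the baseline but near it on 3 of the arrays. The mean of 0.52 ± 0.48 (SD, n = 4) did not pass the limma test (adjusted p = 0.143), and it was 0.29 without replicate 1. The probes disagreed. Probe 555 lay above the baseline on all 4 arrays, at 11.34 to 12.05 log2 units, and probe 1972 on none, at 6.20 to 8.34. With the mean of the log2 probe values, which gives the dim probe more weight, BMPR1B fell to -0.08.

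ACVR1B, or ALK4, is the type I receptor for activins and nodal. The array carries it as 3 targets of 3 probes each, designed on different RefSeq transcripts. The first target stood at 3.38, 2.61, 2.26 and 1.98 on replicates 1 to 4, with a mean of 2.56 ± 0.61 (SD, n = 4). The second had a mean of -0.30 ± 0.59 and the third of -0.57 ± 0.90 (SD, n = 4 for each), and each lay above the baseline on replicate 1 alone. Averaged over the 3 targets, the gene had a mean distance of 0.56 ± 0.65 (SD, n = 4, limma adjusted p = 0.118), which was 0.26 without replicate 1. With its highest target in place of the average it stood at 2.52 (limma adjusted p = 4.3e-12). Which transcripts each probe can bind was not examined here. For ACVR1B the call by the limma test thus rested on how targets are combined, and it rested on the baseline too. With the targets averaged, ACVR1B passed with 1 SD (1.88, limma adjusted p = 8.6e-09). It also passed with 1 baseline for all arrays (0.56, limma adjusted p = 0.0164), and with 3 SD it was at -0.76.

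TGFBR1, or ALK5, is the type I receptor for TGF-beta itself and the partner of TGFBR2. It lay above the baseline on replicate 1, by 0.93, and below it on the others, at -1.56, -0.51 and -1.53 on replicates 2 to 4. The mean was -0.67 ± 1.17 log2 units (SD, n = 4), and it was -1.20 without replicate 1, -0.37 without replicate 2 and -0.38 without replicate 4. It turned positive in 4 of 19 settings, all with a lower baseline, and was 0.65 with 1 SD (limma adjusted p = 0.0395). Its log2 level before subtraction was 10.40 on replicate 1 and 10.18 on replicate 3, and 8.37 on replicate 2 and 8.79 on replicate 4. Replicates 1 and 3 thus exceeded both of the others by at least 1.39 log2 units. A gap of that size in that order was seen in 0.848% of all named genes. The order did not hold in every probe. Probe 6314 read 10.39 log2 units on replicate 1 but 7.91 on replicate 3, below its 8.09 on replicate 2 and 7.99 on replicate 4. All 3 probes of TGFBR1 varied by more than 2 log2 units over the arrays, which 20.9% of the named probes did.

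The same order of arrays, with the log2 levels of replicates 1 and 3 both above those of 2 and 4, held for 6 of the 10 receptors, against 22.2% of all named genes. This order was not among the planned results, and other ways to pair the arrays were not counted. TGFBR1, through which the order is described above, is itself 1 of the 6. The others of the 6 were TGFBR2, BMPR1A, BMPR1B, ACVR1B and ACVR2B, with gaps of 0.08 to 0.39 log2 units. The gap of 0.39 was that of BMPR1A and rested on the low spot of probe 2781 on replicate 2. Without that probe, a check chosen after its value was seen, BMPR1A read 12.32, 12.42, 12.51 and 11.90 log2 units on replicates 1 to 4 and no longer had this order, and its mean distance was 2.18. The opposite order held for ACVR2A and AMHR2, 2 of 10 against 18.5% of all named genes, with gaps of 0.04 and 0.34 log2 units. The labels give no difference between these plates, and the cause of the order was not tested.

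Among the type II genes, TGFBR2 encodes the receptor that binds TGF-beta first. Its distances were 2.74, 2.20, 1.69 and 1.28 on replicates 1 to 4, and all 3 of its probes lay above the baseline on every array. The mean of 1.98 ± 0.63 (SD, n = 4, limma adjusted p = 3.0e-08) exceeded the spread between arrays. Its partner TGFBR1 had a mean below the baseline, and the difference between these genes was not tested. BMPR2, the type II receptor devoted to BMPs, stood at 2.34, 2.23, 1.41 and 0.71, with a mean of 1.67 ± 0.76 (SD, n = 4, limma adjusted p = 2.8e-06). All 3 of its probes lay above the baseline on every array. With a baseline of 3 SD, TGFBR2 stood at 0.66 and BMPR2 at 0.35, and neither passed the limma test (adjusted p = 0.137 and 0.51).

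ACVR2A and ACVR2B are the type II receptors for activins, myostatin and GDF11, and they also serve BMPs. ACVR2B lay above the baseline on all 4 arrays, at 2.19, 1.10, 0.76 and 0.96, a mean of 1.25 ± 0.64 (SD, n = 4, limma adjusted p = 0.00046). All 3 of its probes were above it on every array. With a baseline of 3 SD the mean was -0.07. ACVR2A stood at 0.99, 0.56, -1.41 and 0.28 on replicates 1 to 4, so that replicate 3 lay apart below the baseline. Its mean of 0.11 ± 1.05 (SD, n = 4, limma adjusted p = 0.734) was within the spread between arrays. It was -0.19 without replicate 1, -0.04 without replicate 2, 0.61 without replicate 3 and 0.05 without replicate 4. The low value on replicate 3 came from probe 4320, which read 9.25 log2 units there and 11.45 to 11.66 on the other arrays. The other probes of ACVR2A were at 8.62 to 9.77 log2 units on all arrays.

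AMHR2, the type II receptor for anti-Müllerian hormone, is known from the gonads and the Müllerian ducts. It was the only receptor of the 10 below the baseline on all 4 arrays, at -2.15, -2.28, -3.83 and -1.23 on replicates 1 to 4. The mean was -2.37 ± 1.08 log2 units (SD, n = 4), inside the range of -3.58 to -0.13 that the control genes spanned. The upper end of that range came from SPATA5 and SPATA13 alone, at -0.13 and -0.38. All other controls lay at -3.58 to -2.85, below AMHR2. None of its probes reached the baseline on any array.

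**Figure D2:**
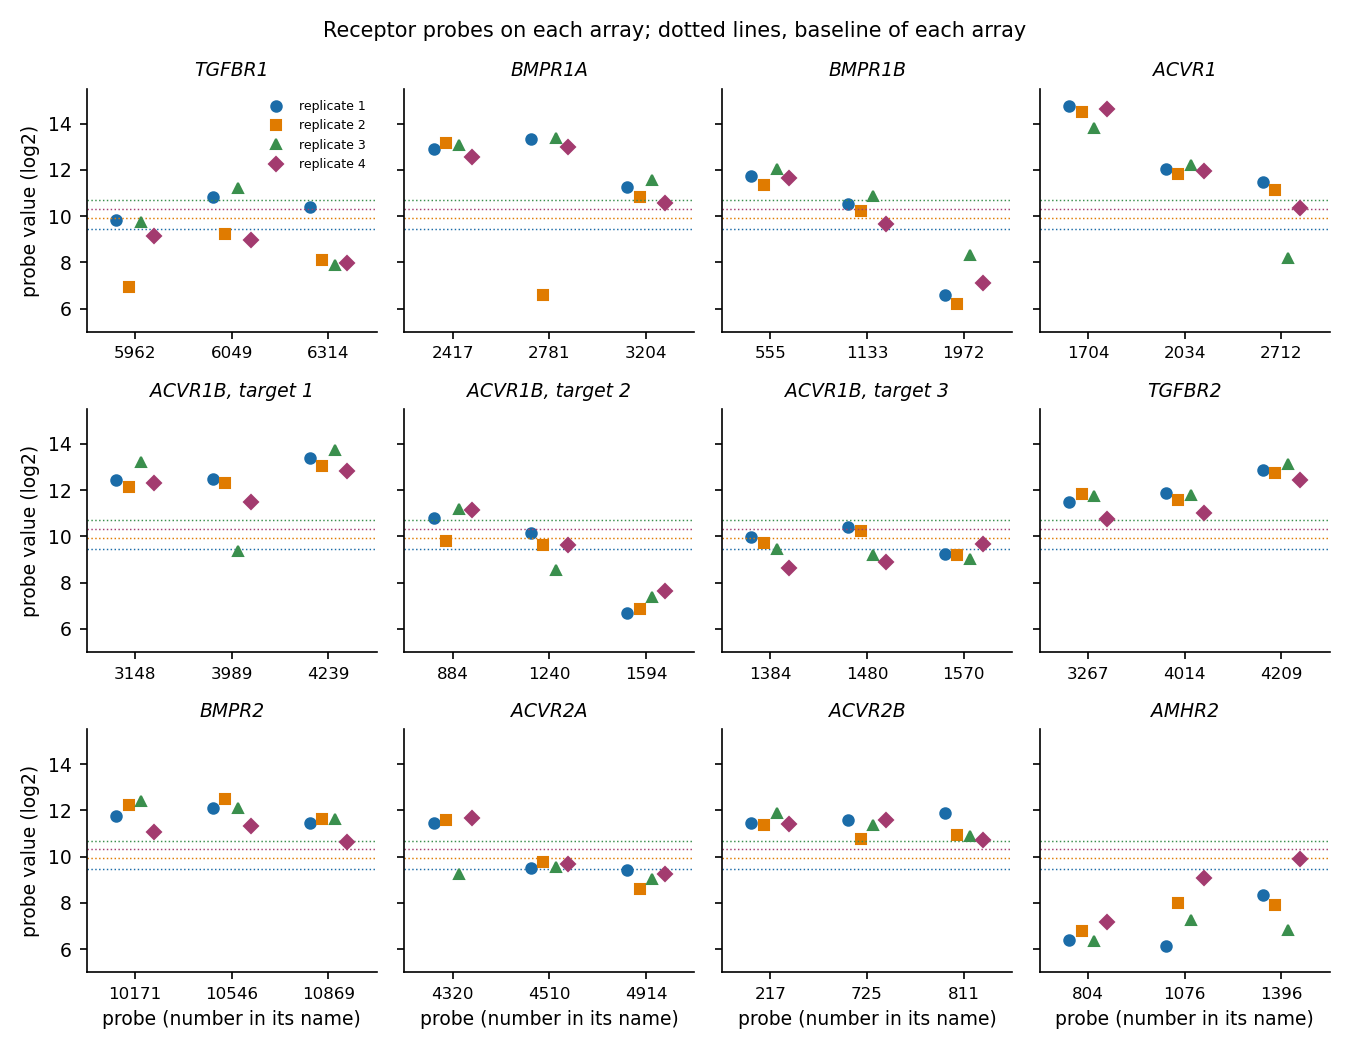
Log2 value (vertical axis) of each probe of the 10 receptors on the 4 arrays, with probes named by the number in their name along the horizontal axis and a panel for each target. Dotted lines are the baselines of the arrays, from 9.47 to 10.69. Single spots lie over 2 log2 units below the other arrays for BMPR1A (6.58) and TGFBR1 (6.94) on replicate 2, and for ACVR2A (9.25), ACVR1 (8.21) and ACVR1B (9.38) on replicate 3, and the first ACVR1B target lies higher than the other ACVR1B targets.

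Of the 36 receptor probes, 16 lay above the baseline on all 4 arrays, against 38.3% of all named probes. Another 7 lay above it on none, against 43.1%, and 13 on some. Spots of 1 target differed by a median of 1.91 log2 units for the receptors and 1.69 for all 19125 named targets. A receptor probe varied over the arrays by a median of 1.13 log2 units, against 1.26 for all named probes.

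The receptors also differ in the sequence before their transcription starts. CG dinucleotides are the sites of DNA methylation, and promoters rich in them are typical of widely expressed genes. They were counted in the 250 bases before each RefSeq start in GRCh38.p14, an assembly later than the one the array was designed on, and the start with the most was taken for a gene. A gene had 1 to 8 such windows among the receptors. The extremes are shown, with CG in capitals, because they belong to the receptor below the baseline on every array and to the one with the most CG. Both lie on the plus strand, ACVR1B at chr12:51951449-51951698 and AMHR2 at chr12:53423605-53423854.
ACVR1B: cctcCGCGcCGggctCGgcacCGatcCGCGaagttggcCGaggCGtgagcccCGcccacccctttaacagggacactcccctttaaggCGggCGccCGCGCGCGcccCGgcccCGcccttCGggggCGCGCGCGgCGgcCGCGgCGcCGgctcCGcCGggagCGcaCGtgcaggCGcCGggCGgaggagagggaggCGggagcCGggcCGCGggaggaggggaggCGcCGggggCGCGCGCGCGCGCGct
AMHR2: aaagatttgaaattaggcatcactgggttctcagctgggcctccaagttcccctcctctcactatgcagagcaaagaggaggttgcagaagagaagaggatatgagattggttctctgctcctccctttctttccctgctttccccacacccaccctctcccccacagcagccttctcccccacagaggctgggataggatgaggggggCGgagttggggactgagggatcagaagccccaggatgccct
The ACVR1B window held 48 CG and the AMHR2 window 1. The other 8 receptors held 9 to 42, with 9 for BMPR1A and 42 for TGFBR1. Over the 13807 named genes with such a window the median was 20, and it was 24 for genes above the baseline and 11 for those not above it. A gene with more starts has more windows from which its highest count is taken. The number of windows was not held equal between genes above the baseline and those not above it, and its part in the difference was not tested. A count of 1 or less was found in 0.488% of the genes above the baseline and 13.3% of those not above it. At least 1 CG was found in 93.9% of all 35116 windows. Among the receptors the count did not follow the distance gene by gene, since TGFBR1 had 42 and a mean below the baseline, and BMPR1A 9 and a mean above it.

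The other genes of the pathway were taken from lists, and 54 of 108 had a mean distance above 0, against 52.7% of all named genes. The same 52.7% stands beside the count of each list below, and 45.9% beside its limma calls. With other baselines the share of all named genes above was 39.1% with 3 SD and 64.3% with 1 SD. It was 74% without SPATA5 and SPATA13, 71.4% with olfactory controls and 67.7% with the median and MAD. ACVRL1 and ACVR1C are type I genes that fall outside the family as chosen. ACVRL1, or ALK1, known from endothelium, lay below the baseline on all 4 arrays at -1.39 ± 0.16 (SD, n = 4). ACVR1C, or ALK7, had a mean of 0.67 ± 0.73 (SD, n = 4, limma adjusted p = 0.063), above it on 3 of 4 arrays. It was 0.38 without replicate 1 and 0.96 without replicate 3 (limma adjusted p = 0.0117), and with the mean of log2 probe values it also passed (0.75, limma adjusted p = 0.044).

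Co-receptors present ligand to the kinases or act as decoys, and 4 of 9 had a mean above the baseline. NEO1, a receptor that also binds repulsive guidance molecules, stood at 4.47 ± 0.64, and the pseudoreceptor BAMBI, which lacks a kinase, at 2.96 ± 0.64 (SD, n = 4 for each). The mean of TGFBR3, or betaglycan, was 1.46 ± 1.01 (SD, n = 4), with -0.03 on replicate 3 and 1.81 to 2.17 on the others. RGMB had a mean of 0.27 ± 0.89 (SD, n = 4, limma adjusted p = 0.448), with -0.14 without replicate 1, 0.55 without replicate 3 and 0.40 without replicate 4. RGMA stood at -0.23 ± 0.69, and the endothelial co-receptor ENG at -1.91 ± 0.53 (SD, n = 4 for each). Without replicate 2 the mean of RGMA was 0.09. CFC1 and CRIPTO, which serve nodal, and HJV, which serves BMP6 in the liver, lay below the baseline on all 4 arrays, at -2.33, -2.62 and -3.26.

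Ligands of the TGF-beta and activin class had 4 of 16 genes above the baseline, 3 of them on all 4 arrays. TGFB1 stood at 4.38 ± 0.43, GDF11 at 2.26 ± 0.26 and TGFB3 at 1.03 ± 0.44 (SD, n = 4 for each), and the limma test called these 3. The count above the baseline was 2 with 3 SD and 7, 8 and 10 with the median and MAD, olfactory controls and without SPATA5 and SPATA13. Of the BMP and GDF class 6 of 17 had a mean above 0. Those above the baseline on all 4 arrays were BMP6 at 2.86 ± 0.56, BMP7 at 2.00 ± 0.36, BMP3 at 1.09 ± 0.37 and BMP2 at 0.85 ± 0.78 (SD, n = 4 for each). BMP2 stood at 0.47 without replicate 1 (limma adjusted p = 0.179). With the median of the probes BMP3 stood at 0.48 (limma adjusted p = 0.174) and BMP2 at -1.43. The count for this class was 2 with 3 SD and 11 without SPATA5 and SPATA13. Named after their values were seen, AMH, the ligand of AMHR2, stood at -2.20 ± 0.97 and the activin subunit INHBA at -3.07 ± 0.28 (SD, n = 4 for each), both below the baseline on all 4 arrays.

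Of 16 extracellular antagonists 2 lay above the baseline, NBL1 at 2.15 ± 0.71 and TWSG1 at 2.404 ± 0.91 (SD, n = 4 for each), which bind BMPs. The count was 8 with 1 SD, 10 with olfactory controls or the median and MAD, and 11 without SPATA5 and SPATA13. Of 8 genes for latency and activation 6 did. LTBP1 and LTBP4, which hold latent TGF-beta in the matrix, stood at 4.75 ± 0.54 and 1.33 ± 0.32, the convertase FURIN at 2.58 ± 0.60, and the integrin subunit ITGAV at 3.40 ± 0.85 (SD, n = 4 for each).

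Of the 8 SMAD genes 7 had a mean above the baseline, and the limma test called the same 7. SMAD4, the partner of all receptor-activated SMADs, stood at 4.00 ± 0.67 (SD, n = 4). In the TGF-beta and activin branch SMAD2 stood at 2.16 ± 0.32 and SMAD3 at 1.41 ± 0.61 (SD, n = 4 for each). In the BMP branch SMAD5 stood at 2.32 ± 0.85, SMAD9 at 1.64 ± 0.35 and SMAD1 at 1.04 ± 0.84 (SD, n = 4 for each). Members of both branches therefore lay above the baseline on all 4 arrays. Of the inhibitory SMADs, SMAD7 stood at 0.99 ± 1.26 and SMAD6 at -0.11 ± 0.66 (SD, n = 4 for each). Without replicate 1, SMAD1 was at 0.68 (limma adjusted p = 0.0562) and SMAD7 at 0.40 (limma adjusted p = 0.258), and neither passed the test. Without replicate 3, SMAD6 was at 0.19. With the median of the probes SMAD9 was at 0.38 and did not pass (limma adjusted p = 0.263).

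Of 22 intracellular regulators 19 had a mean above the baseline, 17 of them on all 4 arrays. FKBP1A, which binds the type I receptors and keeps them inactive, stood at 5.16 ± 0.68 (SD, n = 4). STRAP, a receptor-associated protein, stood at 4.36 ± 0.48, and ZFYVE9, which brings SMAD2 to the receptor, at 1.49 ± 0.81 (SD, n = 4 for each). The ubiquitin ligases SMURF1, NEDD4L and SMURF2 stood at 2.52 ± 0.65, 2.52 ± 0.70 and 1.45 ± 0.69 (SD, n = 4 for each). The corepressor SKI stood at 3.43 ± 0.61 and the kinase MAP3K7, which carries the branch outside the SMADs, at 3.41 ± 0.59 (SD, n = 4 for each). The others above the baseline on all 4 arrays, TGFBRAP1, WWP1, UCHL5, TGIF1, TGIF2, TRIM33, PPM1A, TAB1 and LIMK1, stood between 1.22 and 3.56. TGIF1 fell from 1.46 to 0.96 without replicate 1 and still passed the limma test (adjusted p = 0.0076).

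Genes known to respond to the pathway had 5 of 10 above the baseline (all named genes 52.7%). The limma test called 3 of them (all named genes 45.9%). Without replicate 1 the count above the baseline was 3 (all named genes 50.6%). The others, named after their values were seen, were CCN2, at 2.16, 0.20, 0.51 and -0.74 on replicates 1 to 4, and CDKN2B, at 2.08, -0.35, 0.83 and -1.66. With 3 SD the count was 3 (all named genes 39.1%). It was 8 without SPATA5 and SPATA13 (74%), with olfactory controls (71.4%) and with the median and MAD (67.7%). ID2, ID4 and the cell cycle inhibitor CDKN1A, which other pathways also induce, stood at 4.16 ± 0.65, 2.84 ± 0.80 and 3.61 ± 0.79 (SD, n = 4 for each). Named after their values were seen, the BMP targets ID1 and ID3 stood at -2.46 ± 0.62 and -3.40 ± 0.19 (SD, n = 4 for each), below the baseline on all 4 arrays.

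**Figure D3:**
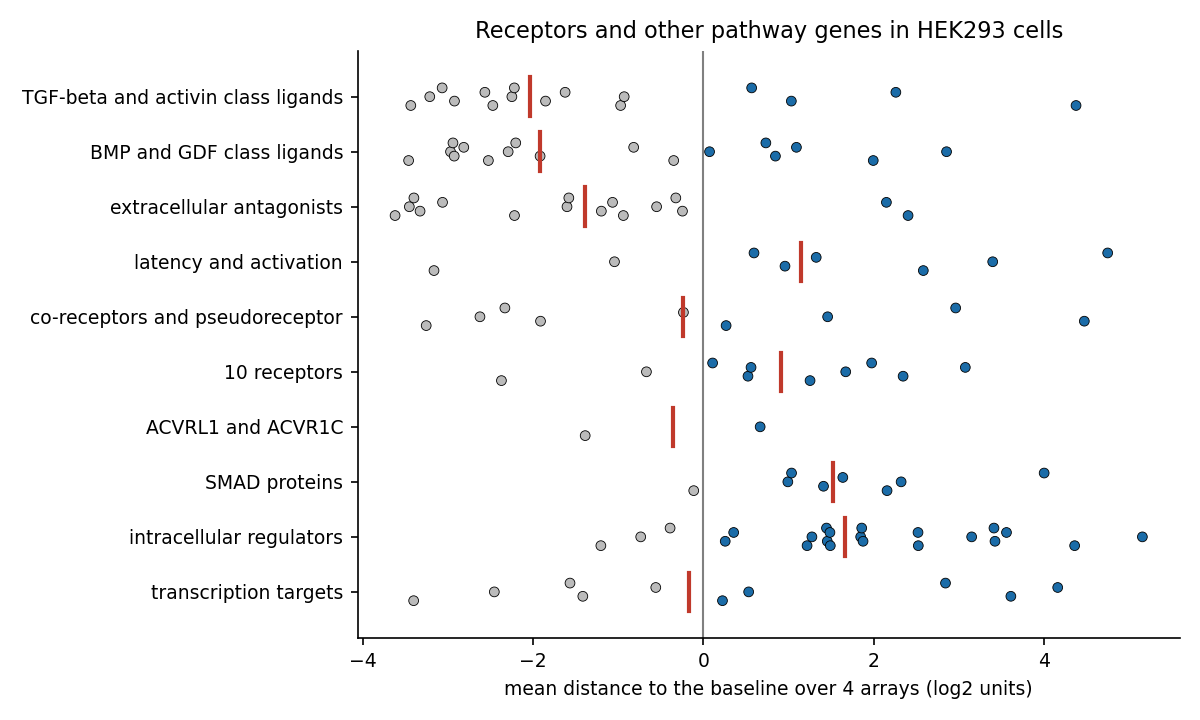
Mean distance to the baseline over 4 arrays (horizontal axis, log2 units) of each gene in the pathway lists and of the 10 receptors. A point is a gene, blue where its mean is above 0 and grey where it is not, and the red line is the median of the list, which is 0.91 for the receptors, 1.52 for the SMAD genes and -2.04 for the TGF-beta and activin class ligands.

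**Figure D4:**
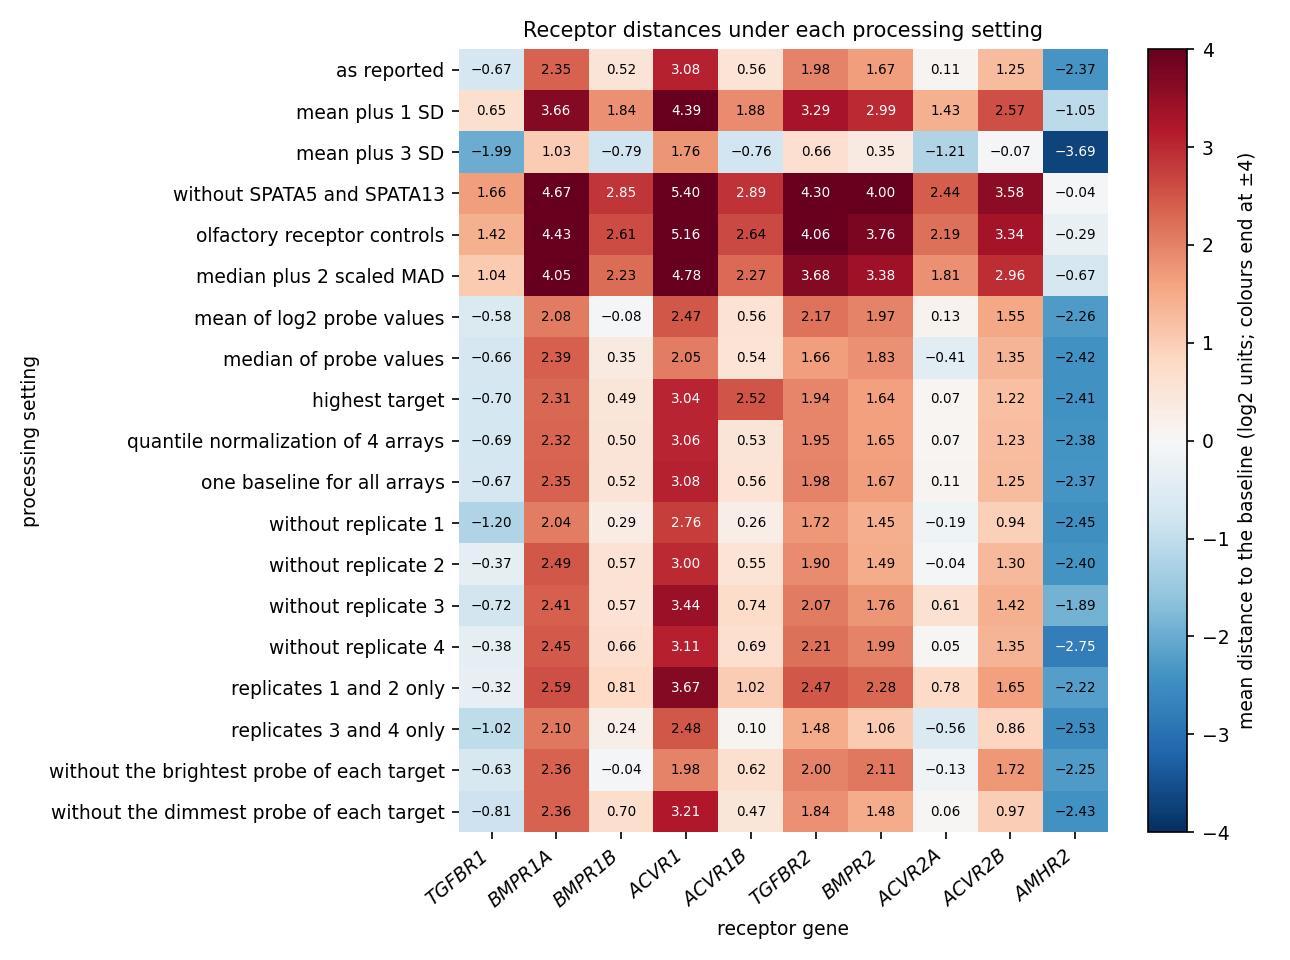
Mean distance to the baseline of each receptor (columns) under each processing setting (rows), printed in log2 units and coloured red above the baseline and blue below it. ACVR1, BMPR1A, TGFBR2 and BMPR2 stay above 0 in every row and AMHR2 below 0, and TGFBR1 is above 0 with 1 SD, without SPATA5 and SPATA13, with olfactory receptor controls and with the median and MAD.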

How the data were processed

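Total RNA of 4 HEK293 plates was copied from an oligo(dT) primer, labelled with Cy3 and hybridised to NimbleGen arrays designed on HG18, with 3 probes for a target. The authors deposited 1 log2 intensity per probe and array, from 5.14 to 15.99 over 71998 probes. The submitters' processing notes name RMA, with no role given. Sorted log2 values matched within 0.01 at 99.97% of ranks for replicates 1 and 2, at 99.99% for 3 and 4 and at 1.23% for 1 and 3, the form of quantile normalization within pairs of arrays. No intensities before processing were used here, so background was not examined, and the number of arrays limits precision. The methods name a separate plate and RNA extraction for each array. In the main limma fit a standard error of 0.351 served all named genes. Its p-values therefore do not measure a gene's own spread between plates.

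Accessions were matched without versions to the RefSeq table of GRCh38.p14, which named 19125 of 24000 targets and 17217 genes. A target's level was log2 of the mean linear probe value, and a gene's level the mean over its targets. Of 11 seminal control genes 10 were matched. A gene was above the baseline where its mean distance exceeded 0, the study's rule. For the one-sided test of distances against 0, limma 3.58 was run in R 4.3. The threshold was a Benjamini-Hochberg adjusted p of 0.05 over all named genes. The test was checked on simulated data with a common SD for all genes and independent arrays. That check could not cover unequal spreads or an error shared by all genes of an array. Distances of all genes on an array share its baseline, whose own error did not enter the test. With 4 arrays the smallest exact one-sided sign-flip p is 0.0625.

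The members and lists were chosen with earlier results of these data known. Named were the 10 receptors, the controls, all SMAD and co-receptor genes, ACVRL1 and ACVR1C, and the genes of other lists above the baseline on all 4 arrays. The alternatives changed the baseline, the summary of probes and targets, the normalization, the arrays used and the test. The promoter windows come from RefSeq, and all 10 receptors had at least 1.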

Additional observations from a re-analysis of the deposited data

Results flagged for a closer look

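Dixon's ratio, the gap of an end value to its neighbour over the whole range, passed its 95% critical value in 3 of 77 sets of 4 array values, and chance marks about 1 in 20. The log2 level of ACVR2A was 9.29 on replicate 3, while the others lay at 10.46 to 10.60 (ratio of gap to range 0.895), and its probe 4320 was the one that differed there. The distance of TGFBR3 was -0.03 on replicate 3, while the others lay at 1.81 to 2.17 (ratio 0.836). The distance of TAB1, a partner of MAP3K7, was 0.80 on replicate 2, while the others lay at 1.38 to 1.47 (ratio 0.870). TGFBR3 and TAB1 were marked on distances, which also hold the baseline of each array. The log2 levels of TAB1 on replicates 1 to 4 were 10.92, 10.74, 12.07 and 11.79, so its level on replicate 2 lay near that on replicate 1. Those of TGFBR3 were 11.36, 12.11, 10.66 and 12.13. The cause was not tested for any of the 3 genes.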

How the results depend on the processing

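Each receptor was recomputed under 19 settings, and ACVR1, BMPR1A, TGFBR2 and BMPR2 stayed above the baseline and AMHR2 below it in all of them. A change of the limma test alone and the use of 1 baseline for all arrays leave every mean distance as it was. Those settings, counted among the 19, could not move a receptor across the baseline. ACVR1 ran from 1.76 to 5.40 and AMHR2 from -3.69 to -0.05. Leaving out each array in turn gave 7 to 8 receptors above the baseline, 5 by the limma test each time, 51 to 56 pathway genes and a mean baseline of 9.91 to 10.32. Each of these fits called 43.4% to 47.2% of all named genes by limma and put 50.6% to 54.3% above the baseline. The baseline itself changed most. With 1 SD it averaged 8.79 and limma called 9 receptors, and TGFBR1 (0.65), RGMA (1.08) and SMAD6 (1.20) rose above it. With 3 SD it averaged 11.42, 4 receptors lay above it and limma called 2. Of the pathway genes 18 turned negative and 36 stayed above. Among the genes named here, those that turned negative were BMPR1B (-0.79), ACVR1B (-0.76), ACVR2A (-1.21), ACVR2B (-0.065), ACVR1C (-0.65), RGMB (-1.05), TGFB3 (-0.28), BMP2 (-0.47), BMP3 (-0.23), SMAD1 (-0.28), SMAD7 (-0.33), PPM1A (-0.10) and TAB1 (-0.043). TGFBR2, BMPR2, SMAD3, SMAD9, TGFBR3, BMP7, NBL1, LTBP4, ZFYVE9, SMURF2, WWP1, TGIF1, TGIF2, TRIM33 and LIMK1 stayed above, between 0.008 and 0.832, but lost the limma call. Without SPATA5 and SPATA13 the baseline averaged 7.78, 85 pathway genes lay above it and limma called 9 receptors, and TGFBR1 (1.66), ACVRL1 (0.94), ENG (0.41), RGMA (2.09), SMAD6 (2.21) and AMH (0.12) turned positive. With 364 olfactory receptor genes as controls (all named genes 71.4% above) it averaged 8.02, limma called 9, and TGFBR1 (1.42), ACVRL1 (0.69), ENG (0.17), RGMA (1.85) and SMAD6 (1.97) turned positive. With the median plus 2 scaled MAD (all named genes 67.7% above) it averaged 8.40, limma called 9, and TGFBR1 (1.04), ACVRL1 (0.32), RGMA (1.47) and SMAD6 (1.59) turned positive.

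With the mean of log2 probe values BMPR1B (-0.081) and BMP2 (-0.37) turned negative, and with the median of the probes ACVR2A (-0.41) and BMP2 (-1.43) did. BMP3 lost its limma call with both, at 0.689 (adjusted p = 0.0623) and 0.481 (adjusted p = 0.174), and SMAD9 and SMAD7 with the median, at 0.381 and 0.893 (adjusted p = 0.263 and 0.0503). Without the brightest probe of each target, an alternative chosen after seeing the data, the baseline averaged 9.52, 6 receptors lay above it, and ACVR2A (-0.13), BMP2 (-1.47) and BMPR1B (-0.044) turned negative, and limma no longer called SMAD9 (0.348), BMP3 (0.305) and TAB1 (0.56). On replicates 1 and 2 alone SMAD6 was at 0.05, and on replicates 3 and 4 alone ACVR2A was at -0.56, RGMB at -0.36 and RGMA at 0.10. Leaving out 1 array moved ACVR2A from -0.19 to 0.612, RGMB from -0.14 to 0.550, the distance of RGMA from -0.440 to 0.091 and SMAD6 from -0.312 to 0.19, so these 4 genes changed sign. With 1 baseline for all arrays limma also called ACVR1C (adjusted p = 0.00772), ACVR1B (adjusted p = 0.0164) and BMPR1B (adjusted p = 0.0319). The causes were not tested beyond the construction of each alternative. No paired analysis was possible because there is 1 group. A level near the baseline cannot be told from those of the control genes SPATA5 and SPATA13, at -0.13 and -0.38. The baseline averaged 10.1 log2 units and the control mean, which the study took as zero expression, 7.47. A level below the baseline therefore does not show that a transcript was absent. For most genes 3 probes stand, and the arrays limit precision by their number.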
